A study of Rattus norvegicus with 4 samples.

Results

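Insulin-like growth factor signalling in the rat hippocampus was described here through 10 genes: the ligands Igf1 and Igf2, the receptors Igf1r and Insr, the receptor substrate Irs1, and the binding proteins Igfbp2, Igfbp3, Igfbp4, Igfbp5 and Igfbp6. They were chosen by name and no measured value entered the rule, but earlier results of these data were known when they were chosen. A probe belonged to a gene when its accession on the array resolved to that gene's symbol, which gave 14 probes for the 10 genes, out of 10768 named probes for 8898 genes and 41012 noncontrol probes in all. Igf1 had 3 probes, Igfbp3 and Igfbp4 had 2 each, and the other genes had 1. All 10 genes are described below, each with every one of its probes.

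Male Wistar rats, 10 weeks old at the start, were housed in standard cages (sedentary, Sed, 10 rats), with a running wheel without resistance (WR, 8 rats) or with a running wheel whose resistance was raised stepwise to 30% of body weight (RWR, 8 rats). The rats in all groups were housed individually and the wheels were used at will for 4 weeks, and the hippocampus was taken on the day after the last exercise day. RNA was pooled within each group before labelling, so each group is a single pool. The RNA amounts in the methods correspond to 3 replicates per pool, and whether a replicate was 1 rat is not given in the sources used here. The pools were compared in 2 colours on 4 chips of a rat whole-genome 4 × 44K oligo array: WR against Sed on chips 1 and 2, and RWR against Sed on chips 3 and 4. The running pool was labelled with Cy5 on chips 1 and 3 and with Cy3 on chips 2 and 4. A single sedentary pool is assumed to lie behind all 4 chips, so the comparisons Sed × WR and Sed × RWR share it. The chips of a pair repeat the measurement of the same pools and say nothing about variation among rats, so no test between the conditions was made.

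Insulin-like growth factors 1 and 2 are secreted peptides that act through the type 1 receptor, a tyrosine kinase closely related to the insulin receptor, which passes the signal through insulin receptor substrates to phosphatidylinositol 3-kinase and Akt. Most of the peptide outside cells is held by binding proteins, which carry it, prolong its life or keep it from the receptor, and proteases that cut the binding proteins set it free. In the adult brain the pathway is known for its part in neuronal survival, in the birth of neurons in the dentate gyrus and in the response to physical exercise, with Igf1 reaching the brain from blood as well as being made in it, and with Igf2 made chiefly in the choroid plexus and the meninges.

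Each value below is a log2 ratio of running over sedentary on a chip, from the dye-normalized signals of the scanner software. The mean of the chips of a pair is called the running term, and it is free of a dye effect that is equal on both chips. The part that changes sign between the chips is called the dye term and is given as log2 Cy5 over Cy3. A ratio has the same sign on both chips only when the running term exceeds the dye term in size. The SD over the 2 chips is set by the size of the dye term, so it is not the error of the mean. The p-value beside a ratio comes from the software's error model for 1 chip. A gene with several probes was counted by its brightest probe, and a gene was called when both chips of a pair put it over 1.5-fold, or both put it under 0.75-fold, each with a deposited p under 0.01. Since the RNA came from whole tissue, fewer cells of a type and less RNA per cell cannot be told apart.

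Pearson's r between the chips of a pair was -0.761 in Sed × WR and -0.686 in Sed × RWR over the 41003 probes on both, after the ratios had been turned to running over sedentary, which describes the chips and is no test. The direction of each ratio follows the dyes given for each pool, which was not tested further. Had the dyes of 1 chip of a pair been given wrongly, the running term and the dye term of every probe in that pair would be exchanged in size, for example 0.20 and 0.88 for Insr in Sed × WR. The dye terms of the 2 pairs correlated at r = 0.807 over the named genes. The pairs share the slide and the array design and, as assumed here, the sedentary pool. All named markers of neurons (6 of 7 listed), astrocytes (6 of 6), oligodendrocytes (5 of 5) and microglia (6 of 6) were well above background in both pools on all 4 chips. None of the 50 spots of the 10 genes was saturated on any chip, and 1 to 4 of these spots per chip carried an outlier mark and were left out.

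No gene of the 10 was called in either comparison. Over all named genes, 0.0674% were called in Sed × WR and 0.0674% in Sed × RWR. Without the p-value condition, 0 of the 10 genes passed the fold limits on both chips, against 0.494% of the named genes in Sed × WR and 1.57% in Sed × RWR. In Sed × WR, 3 genes were lower on both chips (Igf2, Igfbp4 and Igfbp6), 0 were higher on both, and 7 had opposite signs. Of the named genes, 11.6% were lower and 12.2% higher on both chips. In Sed × RWR, 2 genes were lower on both chips (Irs1 and Igfbp4), 1 was higher on both (Igfbp5), and 7 had opposite signs, where 15.7% of the named genes were lower and 12.5% higher. The median log2 ratio of the 10 genes was -0.02 for WR and -0.01 for RWR. The median of the named genes was 0.0015 for WR and -0.0048 for RWR.

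**Figure D1:**
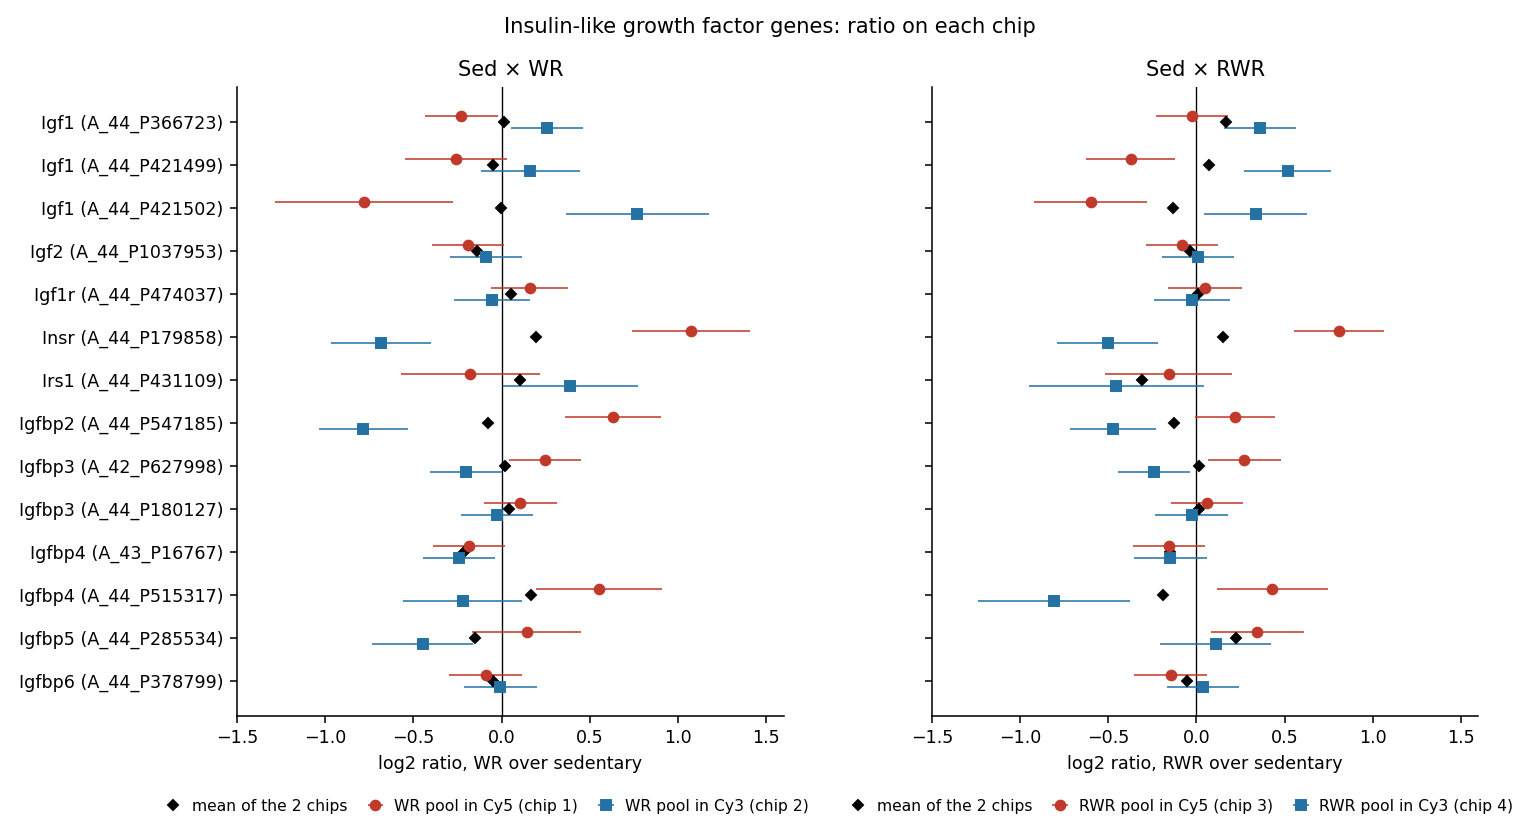
Log2 ratio of running over sedentary (x axis) for the 14 probes of the 10 genes (y axis), with the chip that carried the running pool in Cy5 as circles, the chip with it in Cy3 as squares, their mean as diamonds, and bars for the error of the software's error model on that chip. Most circles and squares of a probe lie on opposite sides of 0 (11 of 14 probes in each comparison), while both symbols of the brighter Igfbp4 probe lie below 0 in both panels.

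Igf1, the growth factor whose secretion from the liver is driven by growth hormone, had opposite signs on the chips of each pair at all 3 of its probes. At the brightest probe the log2 ratio was -0.23 on chip 1 and 0.26 on chip 2, a mean of 0.01 with an SD over the 2 chips of 0.34. For RWR it was -0.03 on chip 3 and 0.36 on chip 4, a mean of 0.17 with an SD of 0.27. On each of the 4 chips the pool labelled with Cy3 was the brighter one, whether it held running or sedentary RNA. The signals of the running and the sedentary pool were 1180 and 1381 on chip 1, 1280 and 1071 on chip 2, 1451 and 1478 on chip 3, and 1368 and 1065 on chip 4. The deposited p lay between 0.0808 and 0.894 and did not pass the threshold on any chip.

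The other Igf1 probes gave signals between 15.6 and 88.6. The second probe gave -0.26 and 0.16 for WR and -0.37 and 0.52 for RWR, with means of -0.05 and 0.07. The third, printed at 10 spots per chip, gave -0.78 and 0.77 for WR and -0.60 and 0.34 for RWR, with means of -0.0050 and -0.13. Its spots spread with an SD between 0.20 and 0.44 within a chip, and on chip 1 the WR pool was well above background at 1 of the 10 spots. Thus the RWR mean of Igf1 was above 0 at 2 of the probes and below 0 at the third.

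Igf2, which signals through the same receptor, was lower on both WR chips by less than the error of either. The ratio was -0.19 on chip 1 and -0.09 on chip 2, a mean of -0.14 with an SD of 0.07, or 0.909-fold. The signals of the WR and the sedentary pool were 1419 and 1618 on chip 1 and 1339 and 1422 on chip 2. The error of a single chip was 0.20 by the error model, and the deposited p was 0.356 and 0.669. Of the named genes, 10.8% had a lower mean ratio in Sed × WR. For RWR the ratio was -0.08 on chip 3 and 0.01 on chip 4, with signals of 1608 and 1703 and of 1418 and 1407 for the RWR and the sedentary pool, so the ratio lay on both sides of 0.

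**Figure D2:**
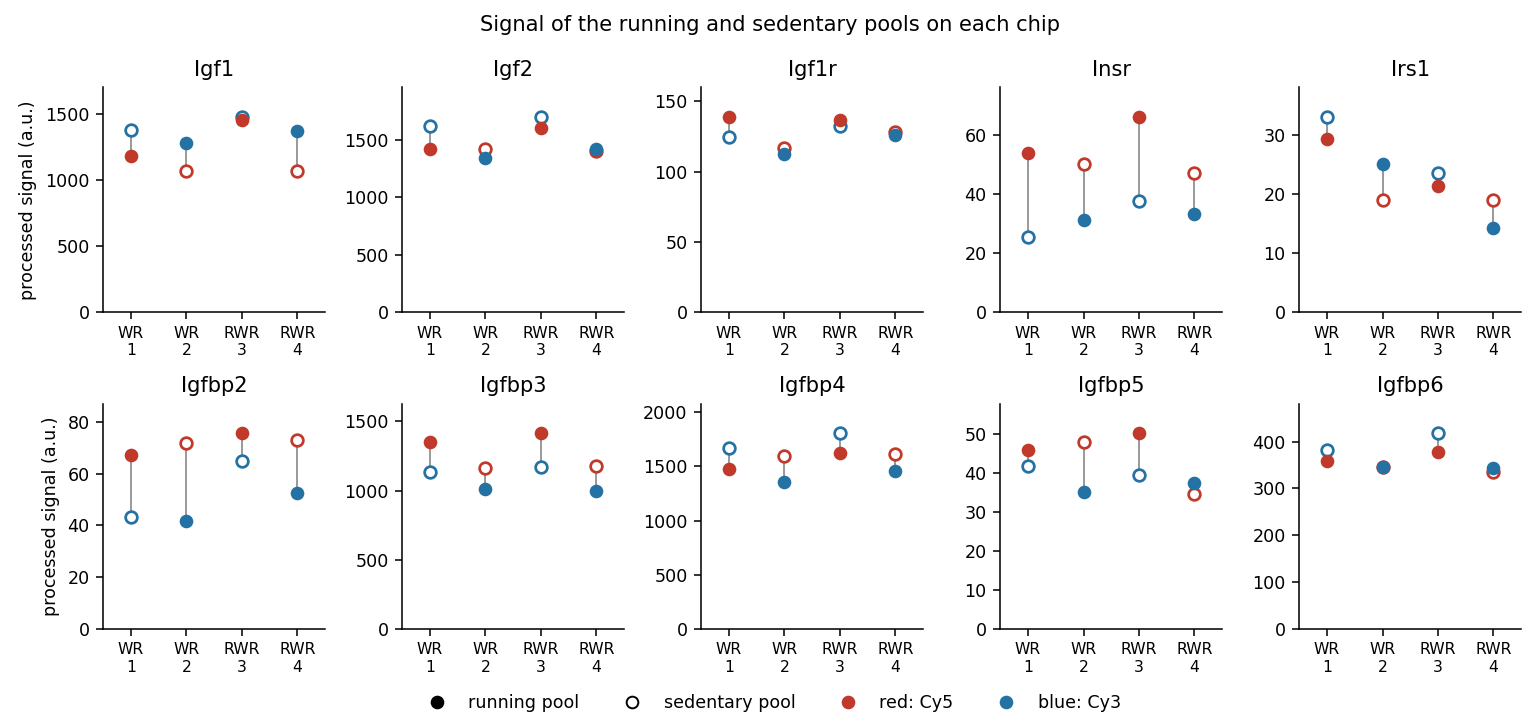
Processed signal in arbitrary units (y axis, from 0) of the running pool (filled) and the sedentary pool (open) on chips 1 and 2 (WR) and 3 and 4 (RWR) for the brightest probe of each gene, with Cy5 in red and Cy3 in blue. Red lies above blue on all 4 chips for Igf1r, Insr, Igfbp2 and Igfbp3, blue lies above red on all 4 for Igf1, and the open symbol lies above the filled one on all 4 for Igfbp4.

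Igf1r, which encodes the type 1 receptor, was measured at 10 spots per chip, and its ratios lay close to 0. They were 0.16 and -0.05 for WR (mean 0.05, SD 0.15) and 0.05 and -0.03 for RWR (mean 0.01, SD 0.05). The spots of a chip spread with an SD between 0.05 and 0.10, over 8 to 10 spots. The running and the sedentary signals were 139 and 125, 113 and 117, 137 and 132, and 126 and 128 on chips 1 to 4.

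Insr, the insulin receptor gene, had the largest dye terms among the brightest probes of the 10 genes. The ratio was 1.08 on chip 1 and -0.69 on chip 2, and 0.81 on chip 3 and -0.50 on chip 4. Means were 0.20 for WR with an SD of 1.25 and 0.15 for RWR with an SD of 0.93, against dye terms of 0.88 and 0.66. In all 4 cases the pool labelled with Cy5 was the brighter: its signal was 53.8, 50.1, 66.1 and 47.0 on chips 1 to 4, and that of the Cy3 pool was 25.5, 31.2, 37.7 and 33.1. The deposited p was 0.00125 on chip 1 and 0.00154 on chip 3, each for a ratio above 1.5-fold. Read from a single chip, Insr would therefore have been called higher in WR and in RWR, while the swapped chip of each pair gave a ratio below 0. The sedentary pool was not well above background on chip 1.

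Irs1, the docking protein that couples both receptors to phosphatidylinositol 3-kinase, was measured at 10 spots per chip, close to background. For WR its ratio was -0.18 on chip 1 and 0.39 on chip 2, with a mean of 0.11 and an SD of 0.40. For RWR it was lower on both chips, -0.16 on chip 3 and -0.45 on chip 4, with a mean of -0.31 and an SD of 0.21, or 0.809-fold. Of the named genes, 9.10% had a lower mean ratio in Sed × RWR. This is the lowest RWR mean of the 10 genes, and it rests on signals near background. The signals of the RWR and the sedentary pool were 21.4 and 23.6 on chip 3 and 14.3 and 19.0 on chip 4, where the RWR pool was well above background at 0 of the 7 spots kept. The spots of a chip ranged from -1.11 to 0.22 on chip 4 and from -0.51 to 0.32 on chip 3, so they lay on both sides of 0. With normexp background correction in place of that of the software, the RWR mean was -0.08, and without background correction it was -0.06. At such low signals a smaller size is built into both settings, through the offset of 50 or the background left in. The smaller means are therefore no separate result. In both cases chip 3 turned to 0.02, and with median centring chip 4 turned to 0.31, so Irs1 was lower on both chips under none of these 3 alternatives.

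Among the binding proteins, Igfbp2, a main binding protein of the brain and the cerebrospinal fluid, showed the dye pattern of Insr. Its ratio was 0.63 and -0.78 for WR (mean -0.07, SD 1.00) and 0.22 and -0.47 for RWR (mean -0.13, SD 0.49). The pool in Cy5 was brighter on all 4 chips, with signals between 67.3 and 75.8, against 41.7 to 65.1 for the pool in Cy3. The deposited p was 0.00211 on chip 2, where the ratio was 0.581-fold, and the ratio of the same pools on chip 1 was 1.55-fold.

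Igfbp3, which with the acid-labile subunit carries most of the peptide in serum, had mean ratios near 0 at both probes. The brighter probe gave 0.25 and -0.20 for WR and 0.27 and -0.24 for RWR, with means of 0.02 and 0.02, and its signals lay between 996 and 1415. The second probe, with 10 spots, gave 0.11 and -0.03 for WR and 0.06 and -0.03 for RWR, with means of 0.04 and 0.02. Its spots spread with an SD of 0.04 to 0.06 within a chip.

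Igfbp4, an inhibitory binding protein that is cleaved by pregnancy-associated plasma protein A, was the only gene of the 10 that was lower on both chips in both comparisons. At its brighter probe the ratio was -0.18 on chip 1 and -0.24 on chip 2, with a mean of -0.21 and an SD of 0.04, or 0.863-fold. For RWR it was -0.15 on chip 3 and -0.15 on chip 4, with a mean of -0.15 and an SD of 0.0050, or 0.901-fold. The signals of the running and the sedentary pool were 1473 and 1674, 1351 and 1596, 1625 and 1808, and 1455 and 1611 on chips 1 to 4, the running pool being the lower one on each chip. The dye term was 0.03 for WR and -0.0035 for RWR, the smallest in size of the 14 probes in each pair. The differences were nonetheless of the size of the measurement error: the error model gave an error of 0.14 for each mean, and the deposited p was 0.368, 0.243, 0.452 and 0.472. If the sedentary pool is shared, as assumed here, both comparisons draw on the same sedentary RNA. Of the named genes, 7.44% had a lower mean ratio in Sed × WR and 15.7% in Sed × RWR.

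The second Igfbp4 probe did not show this. It was dim, with signals between 13.9 and 37.6, and gave 0.55 and -0.22 for WR and 0.43 and -0.81 for RWR, with means of 0.17 and -0.19. On chip 4 the RWR pool was not well above background there. With median centring in place of LOWESS, the RWR mean of the brighter probe was -0.07 and its chips had opposite signs, 0.11 on chip 3 and -0.25 on chip 4.

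Igfbp5, a binding protein that attaches to the extracellular matrix, was the only gene of the 10 that was higher on both RWR chips. The ratio was 0.35 on chip 3 and 0.11 on chip 4, with a mean of 0.23 and an SD of 0.17, or 1.17-fold. In Sed × WR its signs were opposite, 0.14 and -0.45, with a mean of -0.15 and an SD of 0.42. The running and the sedentary signals were 46.0 and 41.7, 35.1 and 47.8, 50.2 and 39.5, and 37.4 and 34.7 on chips 1 to 4. The deposited p for RWR was 0.192 and 0.728, and 93.0% of the named genes had a lower mean ratio. The RWR mean shrank to 0.09 under normexp and to 0.06 when no background was subtracted, and in both cases chip 4 turned below 0, to -0.13 and -0.10. As for Irs1, a smaller mean is built into both settings at low signals. With median centring the signs were opposite as well, -0.11 on chip 3 and 0.51 on chip 4. Igfbp5 lies next to Igfbp2 on chromosome 9 in the GRCr8 annotation, and Igfbp2 had mean ratios of -0.07 and -0.13.

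Igfbp6, which binds Igf2 in preference to Igf1, had ratios of -0.09 and -0.0068 for WR and -0.15 and 0.04 for RWR. Its means were both -0.05, with SDs of 0.06 and 0.13, and its signals lay between 336 and 418. The sizes were below the error of 1 chip. The shared sign of Igfbp6 on the WR chips was lost under normexp, where chip 2 was at 0.05, without background correction, where it was at 0.03, and with median centring, where chip 1 was at 0.04.

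The dye term was larger than the running term at 11 of the 14 probes in each comparison. Its median size over the 14 probes was 0.233 in Sed × WR and 0.171 in Sed × RWR, against 0.064 and 0.129 for the running term. Over the named genes the median size was 0.128 and 0.127 for the dye term and 0.061 and 0.072 for the running term. The dye term had the same sign in both pairs at 12 of the 14 probes. Among the brightest probes it was above 0 in both pairs for Igf1r, Insr, Igfbp2, Igfbp3 and Igfbp5, and below 0 in both for Igf1, Igf2 and Igfbp6. All 10 running terms for WR lay between -0.21 and 0.20, inside the range of -0.29 to 0.44 that held the middle 90% of the named genes. Those for RWR lay between -0.31 and 0.23, inside the corresponding range of -0.52 to 0.29.

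**Figure D3:**
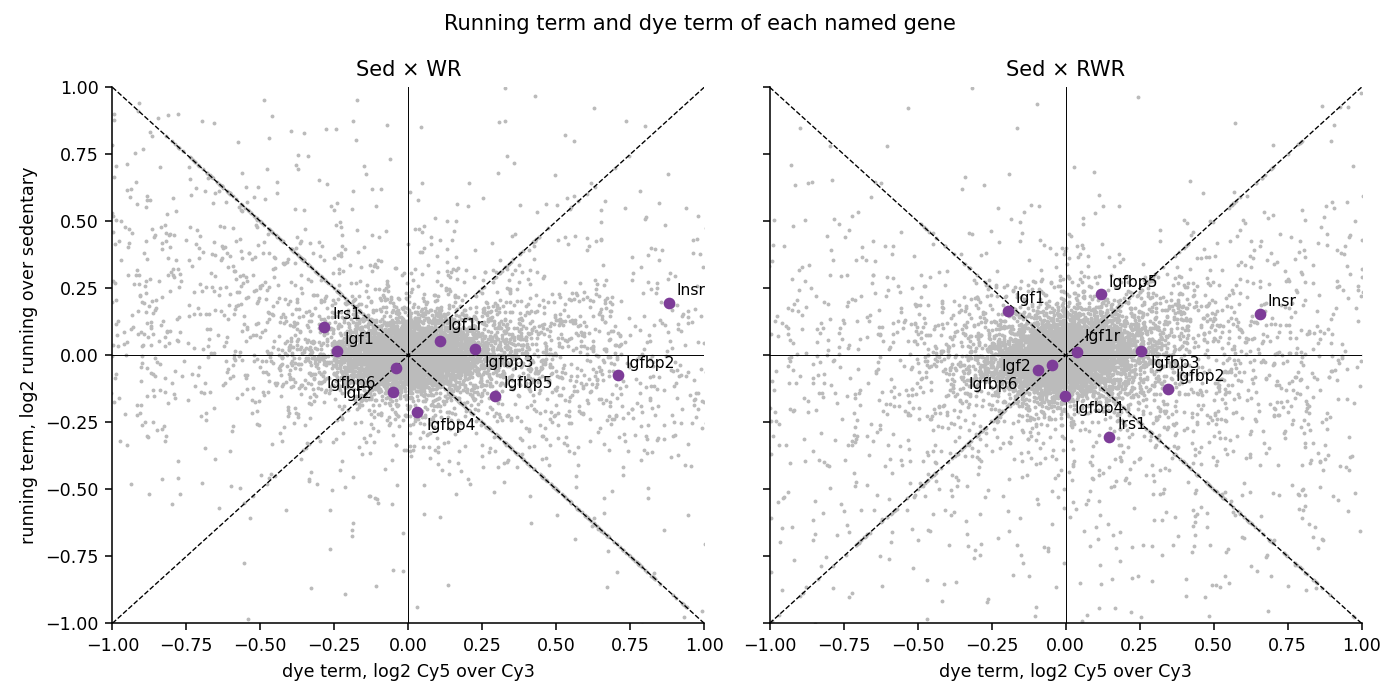
Running term (y axis, log2 running over sedentary) against dye term (x axis, log2 Cy5 over Cy3) for the brightest probe of each named gene (grey) and of the 10 genes (purple), with dashed lines where both terms are equal in size. Genes above or below both dashed lines had the same sign on both chips, which holds for Igf2, Igfbp4 and Igfbp6 on the left and for Irs1, Igfbp4 and Igfbp5 on the right, and 858 and 837 named genes lie beyond the axes, which end at 1.

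The running modes were set side by side through the difference of the running terms, RWR minus WR. In it the sedentary pool, assumed to be shared, cancels only as far as it was measured alike on both pairs of chips. The difference lay between -0.41 for Irs1 and 0.38 for Igfbp5, and it was above 0 at 5 of the 14 probes. The middle 90% of the named genes lay between -0.74 and 0.38. For Igfbp5 the signals of the running pools differed little between the modes in the same dye, with log2 RWR over WR of 0.13 in Cy5 and 0.09 in Cy3, while the sedentary signal in Cy5 was 0.47 lower on chip 4 than on chip 2, a log2 difference of -0.47. For Irs1 the RWR signal was below the WR signal in both dyes, by log2 differences of -0.46 in Cy5 and -0.81 in Cy3, and the sedentary signal differed by -0.49 in Cy3 and -0.0040 in Cy5. These same-dye signals were not scaled between chips, and the median signal was higher on chips 3 and 4 in both dyes. It was 71.3 on chip 1 and 78.3 on chip 3 in Cy5, and 62.2 on chip 2 and 69.3 on chip 4 in Cy3. The RWR minus WR differences of the running terms were -0.04 for Igf1r, -0.04 for Insr, 0.06 for Igfbp4, 0.10 for Igf2 and 0.15 for Igf1. None of these differences was tested.

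Of 62 other genes of the pathway, which were listed as ligands, receptors, binding proteins, proteases, substrates and adaptors, kinases, downstream genes and inhibitors, 43 had a named probe. None of the 43 was called in either comparison. In Sed × WR, 7 were higher on both chips, 6 were lower on both and 30 had opposite signs, with a median of 0.01. In Sed × RWR, 7 were higher, 10 were lower and 26 had opposite signs, with a median of -0.02. These shares stand beside the 12.2% and 11.6% of the named genes for WR and the 12.5% and 15.7% for RWR given above. In Sed × WR, 31 of the 43 were well above background in both pools on both chips, and in Sed × RWR 34 were.

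The ligands and carriers outside the 10 genes were measured in part. Growth hormone, Gh1, which drives Igf1 release from the liver and is made in the pituitary, was lower on both chips of each pair, with -0.06 and -0.52 for WR and -0.11 and -0.16 for RWR. Gh1 also stands in the pituitary list, whose hormone Prl was at -1.52 and -0.44 for WR and at -1.47 and -0.94 for RWR, where it was called. Of the other listed pituitary genes, Cga, Tshb and Lhb each had opposite signs on the chips of both pairs. Their means were -0.06, 0.37 and -0.11 for WR and 0.04, 0.36 and 0.06 for RWR. Prl was not well above background in both pools on both chips of either pair, and its part in the Gh1 values was not tested. The mannose 6-phosphate receptor Igf2r, which takes up Igf2 for degradation, had 0.17 and 0.03 for RWR and 0.05 and -0.03 for WR. Igfbp1, the gene next to Igfbp3 on chromosome 14, had means of -0.02 and 0.07. Htra1, a serine protease that cleaves binding proteins, was lower on both chips of each pair, with -0.09 and -0.10 for WR and -0.23 and -0.15 for RWR.

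Below the receptors, the highest mean ratios for WR were those of the adaptor Grb14, an inhibitor of the insulin receptor (0.36 and 0.09), of the kinase Akt2 (0.38 and 0.06), which carries the insulin signal to glucose uptake, and of Pdpk1 (0.15 and 0.09), the kinase that activates Akt. Gh1 and Htra1 were among the lowest. For RWR, Pdpk1 was again among the highest, with 0.21 and 0.11, beside the phosphatase Ptpn1, which removes phosphate from the insulin receptor, with 0.17 and 0.13. The lowest were the receptor phosphatase Ptprf, with -0.35 and -0.16, Htra1, and Akt2, with -0.11 and -0.23. These genes were taken from the 3 highest and 3 lowest of 12 eligible genes for WR and of 16 for RWR, with the same sign on both chips and both pools well above background. Their deposited p-values ran from 0.0356 for Gh1 on chip 2 to 0.900 for Igf2r on chip 4, and no change passed the call rule.

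**Figure D4:**
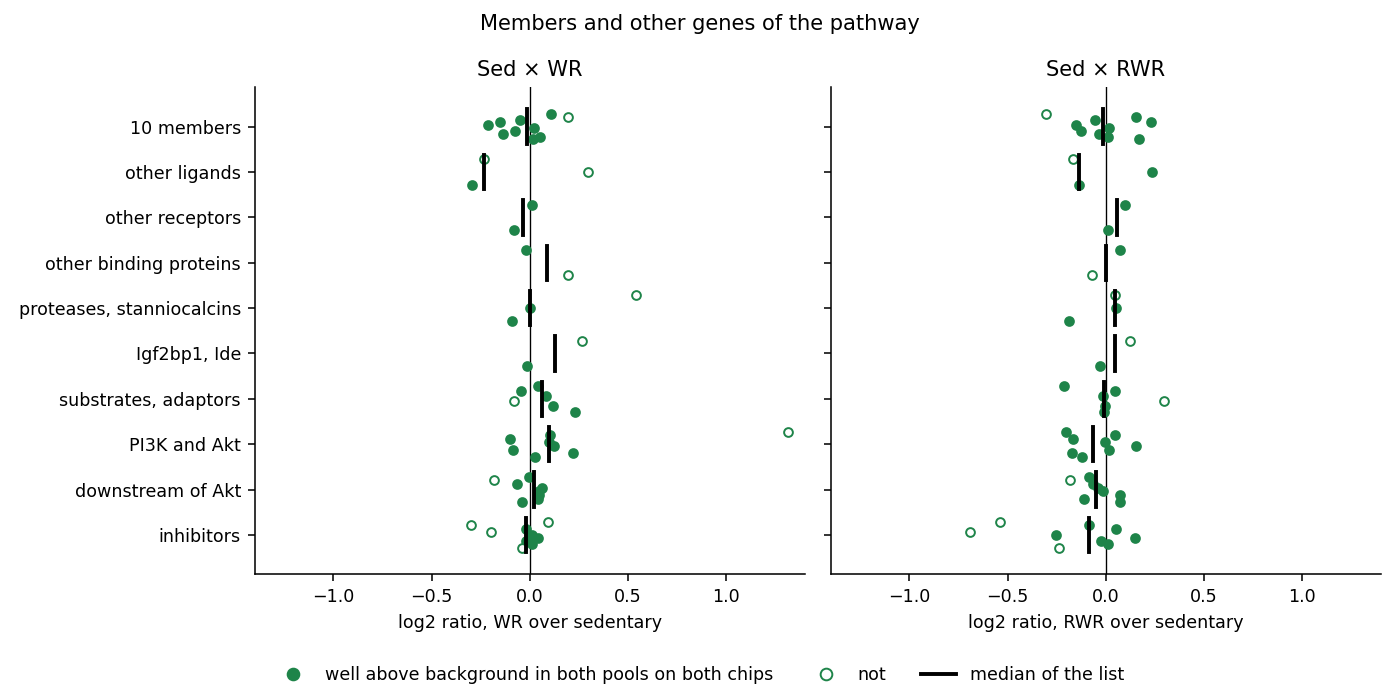
Mean log2 ratio of running over sedentary (x axis) for the 10 genes and for the other named genes of the pathway by role (y axis), with filled circles for genes well above background in both pools on both chips, open circles for the others, and a bar at the median of each list. Filled circles stay within -0.29 and 0.24 in both panels, and the values farthest from 0, at 1.31 for WR and -0.69 for RWR, are open.

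Igf2 and Igfbp2 are made in the choroid plexus and the meninges, so markers of both tissues were read beside them. Of 12 choroid plexus markers 11 had a named probe, and in Sed × WR 4 of these were lower on both chips, 1 was higher on both and 5 had opposite signs, with 1 further gene (Kl) at a ratio of 0 on chip 1. The transport protein Ttr, the leading choroid plexus marker, was called lower in WR, with -0.72 and -0.99, while Igf2 had -0.19 and -0.09 on the same chips. The summed signal of the list was 2014 and 1804 in the WR pool and 2212 and 2242 in the sedentary pool. Enpp2 gave the largest part of this sum in both comparisons. In Sed × WR its mean signal was 1464 in the WR pool and 1530 in the sedentary pool, against 291 and 525 for Ttr. In Sed × RWR, Ttr was at 0.20 and 0.04, 2 markers were lower and 2 higher on both chips and 7 had opposite signs, and the summed signal was 2683 and 2329 in the RWR pool against 2548 and 2406. Kl, Clic6, Kcne2, Slc4a5 and Prlr were not well above background in either pool in Sed × WR, and Kl, Kcne2 and Prlr were not in Sed × RWR. The median log2 ratio of the choroid plexus list was -0.0088 for WR and 0.06 for RWR.

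Of 11 meninges markers 8 had a named probe. Col1a2, Col3a1, Dcn and Fmod encode collagens and small proteoglycans of the extracellular matrix. They were lower on both WR chips and higher on both RWR chips, 4 of the 8 in each case. Their ratios were small, from -0.27 for Col3a1 on chip 1 to 0.12 for Fmod on chip 3. Fmod was at -0.0007 on chip 1, and the deposited p of the 4 genes ran from 0.217 to 0.997. Among all named genes, 11.6% were lower on both WR chips and 12.5% were higher on both RWR chips. The medians of the list were -0.08 for WR and 0.06 for RWR, and 0 markers were called. The summed signal was 3845 and 3650 in the WR pool against 4084 and 3845 in the sedentary pool, and 4502 and 3877 in the RWR pool against 4451 and 3692. Igf2 was lower on both WR chips and of opposite signs for RWR, and Igfbp2 was of opposite signs for both. The Igf2 value for WR lay on the same side of 0 as those of Ttr, Col1a2, Col3a1, Dcn and Fmod. The other 4 named meninges markers had opposite signs on the WR chips. Among the 11 choroid plexus markers, 5 had opposite signs there and 1 was higher on both. The part of these markers in the Igf2 result was not tested.

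The remaining lists showed small medians. Vessel markers (6 of 9 named) had medians of -0.02 and 0.0017 for WR and RWR, blood markers (2 of 4) -0.02 and 0.0033, neuron markers 0.04 and 0.06, astrocyte markers 0.0075 and 0.0031, oligodendrocyte markers -0.07 and -0.08, and microglia markers 0.04 and 0.06. The 5 pituitary markers had medians of -0.11 and 0.04, and Prl was the only one of them called. Besides Ttr for WR and Prl for RWR, 0 genes of these lists were called.

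**Figure D5:**
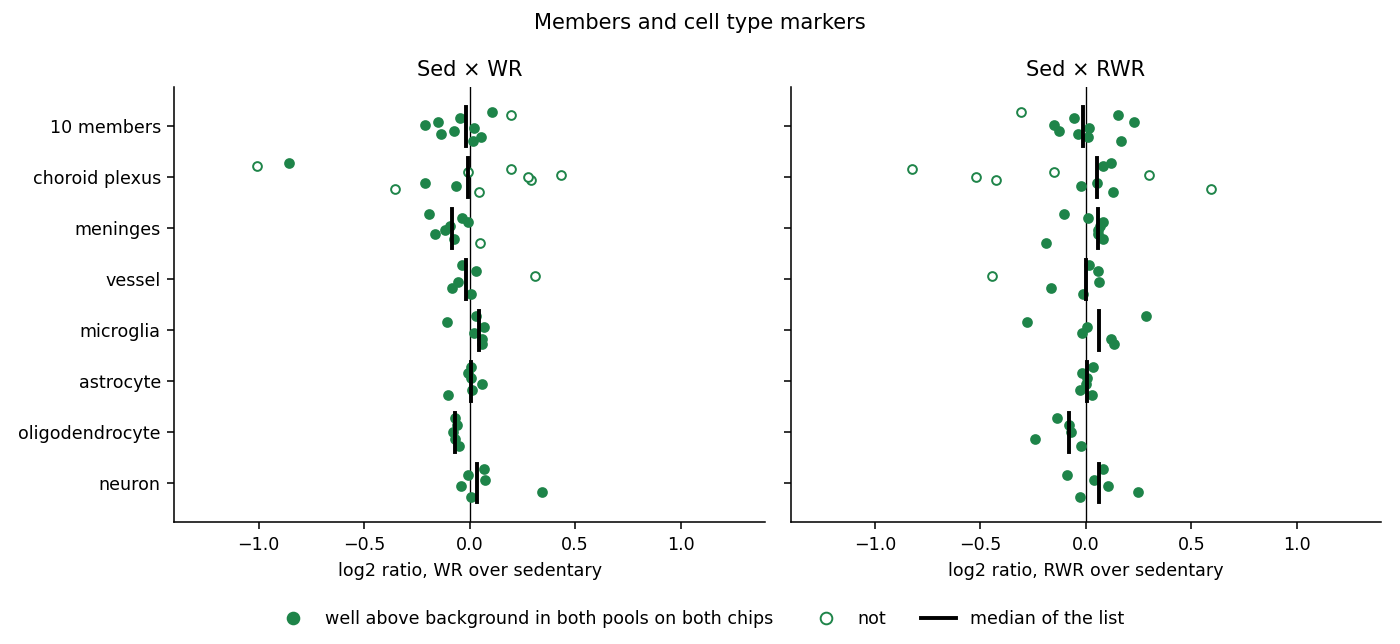
Mean log2 ratio of running over sedentary (x axis) for the 10 genes and for markers of cell types (y axis), with filled circles for genes well above background in both pools on both chips, open circles for the others, and a bar at the median of each list. The filled choroid plexus circle at -0.86 for WR is Ttr, and the medians of the meninges markers lie at -0.08 for WR and 0.06 for RWR.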

How the data were processed

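The 4 chips held RNA pools labelled with Cy3 and Cy5. The authors scanned them and processed the images with Agilent Feature Extraction 11.0.1.1. The deposited processed intensity of each dye followed background subtraction and LOWESS dye normalization. The deposited log10 ratio was that of Cy5 over Cy3. The p-value deposited beside it came from the propagated and universal error models of 1 chip, and the deposited error of the log ratio was used as a score of measurement error. The authors' deposited series matrix held the same log10 ratio without a turn for the dye swap (largest difference under 5e-06), with column medians of 0.0102, 0.0064, 0.0055 and 0.0009 for chips 1 to 4, so its scale, centring and direction were known. Each chip held 43379 noncontrol spots, all on a single slide, and 67.5% to 77.6% of them were well above background in Cy3 and 71.7% to 82.5% in Cy5. The number of chips limits the precision, and the error given across the chips of a pair is technical.

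From these values, control spots and 118 to 140 spots per chip with an outlier mark were dropped. Ratios were then expressed as log2 running over sedentary and averaged over a probe's spots, and p-values were summarized by their median. A probe with several spots counted as well above background when at least 50% of its spots were. The array was designed on the rn4 build, and accessions were named through the RefSeq table of GRCr8, used for names and neighbours only. The 10 genes and all gene lists were chosen with earlier results of these data known. Named in the text were the 10 genes, every called gene of the lists, and for each comparison the 3 highest and 3 lowest other pathway genes among those well above background in both dyes with the same sign on both chips, together with genes of the choroid plexus and meninges lists. Igfbp1, Cga, Tshb, Lhb, the WR value of Igf2r and the RWR value of Gh1 fall outside this rule and were named after their values were seen. Of the genes this rule selected, 1 is not reported here. The mean over swapped chips and the call rule, but not this choice of genes, were tested on simulated data. No test between conditions was run. The alternatives were normexp background correction (offset 50) with loess and no background correction with loess, both on median signals, median centring, a filter on dim probes, the series matrix values, the median of every probe a gene had, no p-value filter, and each chip left out. Computations used R 4.3.3 with limma 3.58.1 and Python 3.11.15 with numpy 2.4.6, pandas 2.3.3 and matplotlib 3.10.9.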

Additional observations from a re-analysis of the deposited data

Results flagged for a closer look

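The kinase Akt2 lay above 0 on both WR chips and below 0 on both RWR chips. Its log2 ratio was 0.38 and 0.06 for WR and -0.11 and -0.23 for RWR, so that RWR minus WR was -0.39. The pools were single, and the difference was not tested.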

How the results depend on the processing

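No paired analysis was possible because each result comes from 1 pool per group and from no test. The number of called genes among the 10 stayed at 0 in both comparisons under every alternative that used both chips of a pair. With a single chip, 1 gene was called for WR (Insr, higher, on chip 1 alone, or Igfbp2, lower, on chip 2 alone, so the range was 1 to 1), and 0 to 1 for RWR (Insr, higher, on chip 3 alone). With a single chip, the genes above 0 numbered 2 to 5 for WR and 4 to 5 for RWR, those below 0 numbered 5 to 8 and 5 to 6, the median of the 10 genes ran from -0.145 to 0.0265 and from -0.0864 to 0.0108, and that of the other pathway genes ran from -0.0248 to 0.0522 and from -0.0427 to 0.0229. Without background correction, 1 gene was higher on both WR chips. The count of genes higher on both RWR chips was 0 under normexp and 0 when no background was subtracted, where Igfbp5 had opposite signs. With median centring it stayed at 1, but the gene was Igf1 in place of Igfbp5. The count of genes lower on both RWR chips was 0 with median centring, 1 with the filter on dim probes and 1 when the median of a gene's probes was used. It stayed at 2 under normexp and without background correction, where the genes were Igfbp2 and Igfbp4 in place of Irs1 and Igfbp4. The count of genes lower on both WR chips was 2 in place of 3 under normexp, without background correction and with median centring, each time without Igfbp6. It was also 2 when the median of a gene's probes was used, there without Igfbp4. Of the 59 values of single genes in each comparison under the alternatives that kept both chips, 2 changed sign for WR (Igf1 and Insr) and 4 for RWR (Igf1, Igf2, Insr and Igfbp6), each in 1 alternative. With a single chip, every gene whose chips had opposite signs changed sign on 1 of them. The WR mean of Igfbp4 was -0.02 as the median over both probes. The cause was not tested. Signals near background limit Insr, Irs1, Igfbp2, Igfbp5, the dimmer Igf1 probes and the second Igfbp4 probe.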
